A study of Mus musculus with 4 samples.

Results

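The genes described here are a set of 10 genes that mark fat cells, read in 4 samples of adult mouse ureter. They are Fabp4, Fabp5, Adipoq, Cfd, Plin1, Cidec, Retn, Lipe, Scd1 and Lpl. A gene was measured where a probe set, the group of oligonucleotides that reads 1 transcript on the array, had that gene as its only annotated symbol. By this rule 8 of the 10 genes were measured, with 15 probe sets, out of 18193 named genes and 45037 probe sets in all. Cfd and Plin1 had no such probe set and are not analysed here. The set was selected on measured values, the levels of these genes on the same 4 arrays, because Fabp4 stood apart from Adipoq on 1 of them. That difference is therefore given as a description, with no test.

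All samples came from 1 group, adult male mice of the FVB/N strain at Theiler stage 28, carrying the SMGA/EGFP transgene. In this reporter, green fluorescent protein follows smooth muscle gamma actin (gene symbol Actg2), and the ureter was cut out between kidney and bladder by its fluorescence. The labels' protocol names no step that removed fat, muscle or vessels attached to the tube. Samples were not pooled, and total RNA went through 2 rounds of amplification before hybridisation to Affymetrix MOE430 arrays, 1 per sample. Replicates 1 to 4 below are these samples, numbered by name only. Whether they came from 4 different animals is not stated in the labels, so p-values measure only the spread between these samples, which may be technical. There was no second group, and the design allowed 1 kind of test, whether a gene's mean lay above background.

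A white fat cell stores triglyceride in a single lipid droplet. Lipoprotein lipase (Lpl) frees fatty acids from blood lipoproteins at the capillary wall, binding proteins such as Fabp4 and Fabp5 carry them inside the cell, and Scd1 desaturates them. Perilipin 1 (Plin1) and Cidec coat and enlarge the droplet, and hormone-sensitive lipase (Lipe) breaks its contents down. Adiponectin (Adipoq), resistin (Retn) and adipsin (Cfd) are secreted. The genes are not equally restricted to fat. Adipoq, Plin1 and Cidec are close to exclusive to fat cells among the cells of a ureter, whereas Fabp4 is also a gene of capillary endothelium and of macrophages, Fabp5 of epithelia and macrophages, Lpl of striated muscle and macrophages, and Scd1 of many lipid-making epithelia. Fat surrounds the ureter outside its muscle coat.

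The level of a gene is log2(intensity + 16) of the probe set whose mean over the arrays is highest. Levels of different probe sets cannot be set against each other, so each gene is compared only with itself across samples and with the background of its own array. That background was the 95th percentile of 85 probe sets for olfactory, vomeronasal, taste and trace amine receptors, which gave thresholds of 7.25, 6.99, 7.57 and 7.36 in replicates 1 to 4. A gene was above background where limma's moderated one-sided test of the mean distance from these thresholds had a Benjamini-Hochberg adjusted p under 0.05 for any of its probe sets. With 4 arrays the precision of each value is limited.

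Of the 8 measured genes, 3 were above background, namely Fabp5, Scd1 and Lpl. Across all named genes 57.8% were above background. Counted by probe set, 5 of 15 passed, against 40.9% of all probe sets. The 3 genes that passed had 2 probe sets each. Adipoq, Cidec and Retn had 1 probe set each and did not pass (adjusted p = 1 for each). Probe sets differed in number and brightness between genes, so nothing about the source of the RNA is read from these calls. Fabp4 and Lipe lay between, with lowest adjusted p-values over their probe sets of 0.0849 and 0.0834. Fabp4 passed without replicate 1 (adjusted p = 0.0424) and Lipe without replicate 2 (adjusted p = 0.0485), so the count became 4 in each case. Without replicate 3 the count was again 3, and the adjusted p of Fabp4 was 0.204. The high level of Fabp4 in replicate 3 was part of the choice of the set, so nothing is read from its pass.

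**Figure D1:**
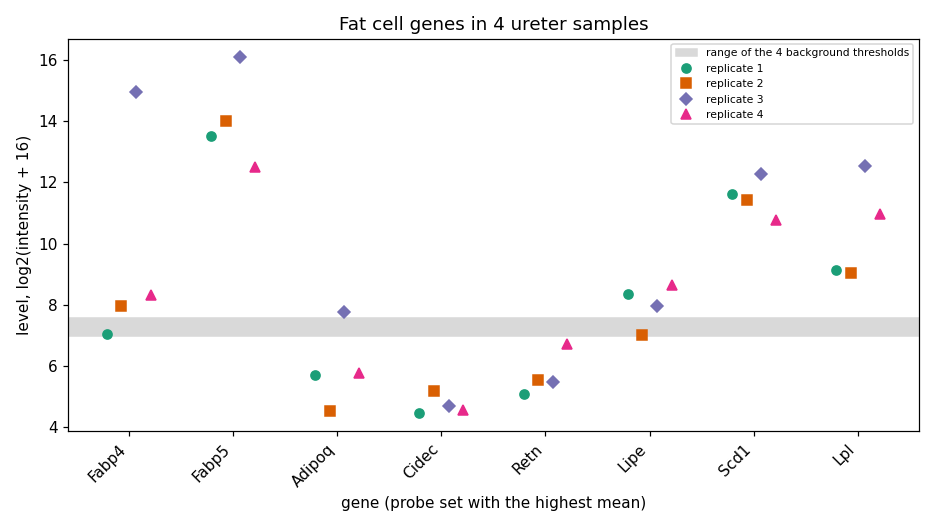
Levels, as log2(intensity + 16), of the 8 measured fat cell genes in each of 4 ureter samples, 1 symbol per sample, with the grey band spanning the 4 array thresholds from 6.99 to 7.57. Fabp4 is at 14.93 in replicate 3 and no higher than 8.33 in the others, while Cidec and Retn stay below the band in all 4 samples.

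Fabp4, the fatty acid binding protein of fat cells, had an intensity of 31235 in replicate 3 and of 117, 231 and 305 in replicates 1, 2 and 4. As levels these were 14.93 in replicate 3 and 7.06, 7.95 and 8.33 in the others (9.57 ± 3.62, SD, n = 4). Replicate 3 alone was high, 6.60 log2 units over the next sample, and the other 3 lay from 0.19 below to 0.97 above their own thresholds. The excess of replicate 3 over the mean of the other samples was 7.15 log2 units, and 22 of 18193 genes had a larger one. The SD of Fabp4 was exceeded by that of 38 genes.

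The 4 probe sets of Fabp4 were each highest in replicate 3, by unequal amounts. The second brightest, 1451263_a_at, had levels of 7.16, 7.61, 14.18 and 8.46 in replicates 1 to 4, an excess of 6.44. The third, 1425809_at, stayed under the threshold in every sample and had an excess of 0.98. The fourth, 1424155_at, was over the threshold in replicate 3 only, at 8.73 against 4.39 to 5.69, an excess of 3.83. Averaged over the 4 probe sets, the excess of Fabp4 was 4.60 log2 units.

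**Figure D2:**
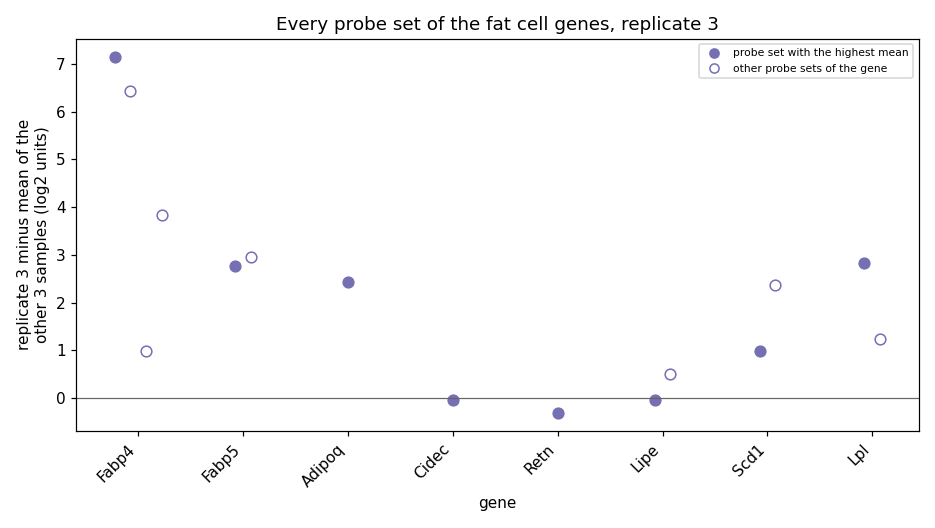
Difference between replicate 3 and the mean of the other 3 samples, in log2 units, for each of the 15 probe sets, with filled points for the probe set that gives the gene its level. The brightest Fabp4 probe sets lie at 7.15 and 6.44, Fabp5, Lpl and Adipoq between 1.23 and 2.95, and Cidec, Retn and the brighter Lipe probe set near or below 0.

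Adipoq, the adiponectin gene, had levels of 5.71, 4.54, 7.77 and 5.77 in replicates 1 to 4 (5.95 ± 1.34, SD, n = 4). It too was highest in replicate 3, by 2.44 log2 units over the mean of the others, but lay only 0.21 above the threshold there and 1.54 to 2.46 below it elsewhere. With levels under a threshold set to that threshold, an alternative added after the data were examined, the excess of Adipoq was 0.57 log2 units and that of Fabp4 7.09. Much of the 0.57 came from the thresholds themselves, since that of replicate 3 was the highest of the 4. Cidec and Retn, under the threshold in every sample, had an excess of 0.37 by the same measure. The intensity of Adipoq in replicate 3 was 203, against 7.2 to 38.5 in the other samples.

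Retn, the resistin gene, and Cidec, a droplet protein gene, were under the threshold in all 4 samples. Among all named genes 23.4% were. Retn had levels of 5.08, 5.55, 5.47 and 6.72, highest in replicate 4. Cidec had 4.47, 5.19, 4.70 and 4.56, with an SD of 0.32. Neither was high in replicate 3, where the difference from the other samples was -0.32 for Retn and -0.04 for Cidec.

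Lipe, the hormone-sensitive lipase gene, lay just over the threshold in every sample by both of its probe sets. The brighter one had levels of 8.34, 7.02, 7.96 and 8.66 in replicates 1 to 4 (7.99 ± 0.71, SD, n = 4), lowest in replicate 2, where it was 0.02 above the threshold. The other had 7.43, 7.17, 7.89 and 7.55 (7.51 ± 0.30, SD, n = 4) and was highest in replicate 3. The probe sets thus ordered the samples differently, and the excess of replicate 3 was -0.05 by one and 0.50 by the other.

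Fabp5, the epidermal type fatty acid binding protein, was above background in all samples (adjusted p = 2.3e-06). Its levels were 13.50, 13.999, 16.10 and 12.51 in replicates 1 to 4 (14.03 ± 1.51, SD, n = 4). The second probe set followed with 9.92, 10.52, 12.78 and 9.05 and was also above background (adjusted p = 0.000391). Both put replicate 3 highest, by 2.76 and 2.95 log2 units over the mean of the others, and replicate 4 lowest. Unlike Fabp4, Fabp5 lay at least 5.15 log2 units above the threshold in each of the 4 samples by its brighter probe set. Mouse Fabp5 has processed pseudogenes that resemble its transcript, and whether they reach these probe sets was not tested.

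Scd1, stearoyl-CoA desaturase, was above background (adjusted p = 1.19e-06) with levels of 11.62, 11.44, 12.26 and 10.77 in replicates 1 to 4 (11.52 ± 0.61, SD, n = 4). It was highest in replicate 3 and lowest in replicate 4, within a range of under 2 log2 units. Its other probe set had 6.81, 8.26, 10.27 and 8.63 and placed replicate 1 lowest (adjusted p = 0.046). The excess of replicate 3 was 0.99 by the brighter probe set and 2.37 by the other.

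Lpl, lipoprotein lipase, was above background (adjusted p = 0.000458) with levels of 9.13, 9.04, 12.54 and 10.96 in replicates 1 to 4 (10.42 ± 1.67, SD, n = 4). Replicate 3 was highest, 2.83 log2 units above the mean of the others, and replicate 4 came next. The dimmer probe set kept this order of the upper samples at 6.48, 5.70, 7.58 and 6.88, and was at most 0.02 above the threshold.

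Sample by sample, 4, 5, 6 and 5 of the 8 measured fat cell genes exceeded the threshold in replicates 1 to 4, against 66.9%, 68.5%, 67.4% and 65.9% of all named genes. Fabp5, Lipe, Scd1 and Lpl did so in all 4 samples, 4 of 8 genes, as 58.4% of named genes did. In replicate 3 Fabp4, Fabp5, Adipoq, Scd1 and Lpl had their highest level, 5 of 8 genes, where 33.6% of all named genes did. An excess of over 1 log2 unit there was seen in 4 of the 8 (Fabp4, Fabp5, Adipoq and Lpl) and in 15.2% of all named genes. The median over the 8 genes was 1.71 in replicate 3, beside 0.08 over all named genes, and -0.53, -0.76 and -0.23 in replicates 1, 2 and 4. Without Fabp4 and Fabp5 the median in replicate 3 was 0.47. Part of this pattern was used to choose the set, and nothing is read from these shares.

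Replicate 3 also stood apart in other tissues' genes, and these values belong beside every excess given above. Each of 14 skeletal muscle genes exceeded the threshold in replicate 3, while 4, 4 and 5 of them did in replicates 1, 2 and 4. Of all named genes 67.4% did in replicate 3, and 66.9%, 68.5% and 65.9% in replicates 1, 2 and 4. The summed intensity of the 14 skeletal muscle genes was 262696 in replicate 3 and 1389 to 1509 elsewhere. The level of Myh4, which encodes the myosin of the fastest fibres, was 16.39 in replicate 3 against 4.14 to 4.52, and that of Acta1, skeletal alpha actin, was 14.90 against 4.35 to 6.88. The part of skeletal muscle RNA in the levels of Fabp4 and Lpl was not tested. In such bulk samples, fewer cells of a type and less RNA per cell cannot be told apart.

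Marker genes of endothelium and macrophages, cell types in which Fabp4 is also known to be expressed, were mostly lower in that sample, and their part in the level of Fabp4 was not tested. None of 12 endothelial genes was higher in replicate 3 than the mean of the other samples, and their median difference was -1.82. Cdh5, the cadherin of endothelial junctions, had 9.84 in that sample against 11.73 to 12.45, and Kdr, a VEGF receptor, had 9.71 against 9.56 to 10.36. Of 13 macrophage genes 3 were higher in replicate 3, namely Mrc1, Lyz2 and Fcgr1, named after their values were seen, and the list's median was -0.69. Csf1r, the colony stimulating factor 1 receptor, had 11.48 against 11.96 to 12.35, and Cd68 had 8.77 against 8.97 to 9.70. The summed intensity in replicate 3 was the lowest of the 4 samples for both lists, 8908 against 27975 to 52689 for endothelium and 14743 against 15825 to 28617 for macrophages.

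**Figure D3:**
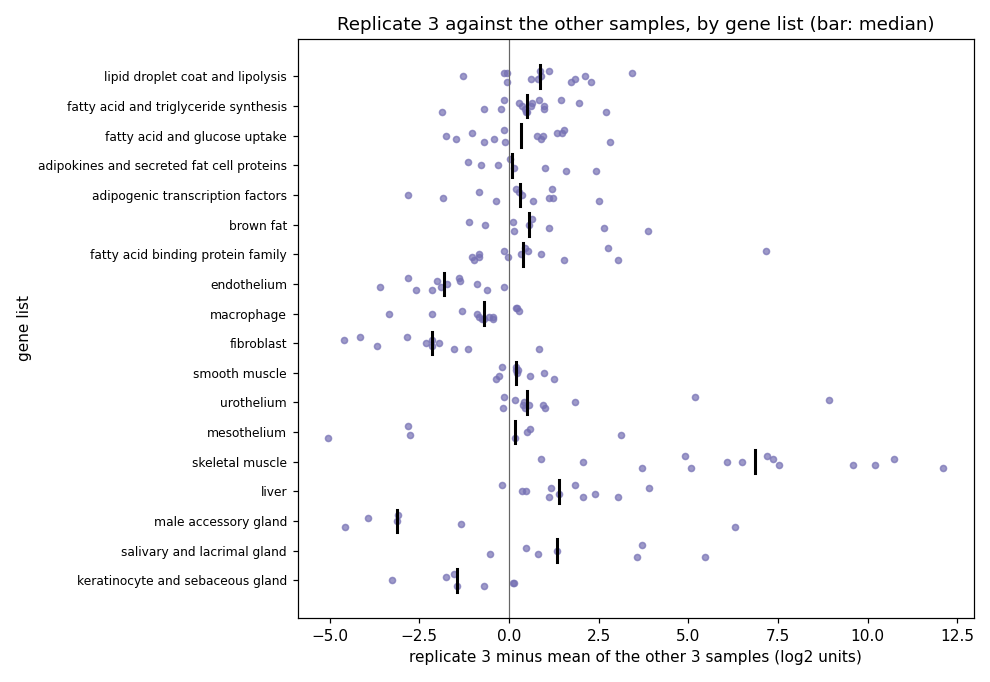
Difference between replicate 3 and the mean of the other 3 samples, in log2 units, for each measured gene of 18 gene lists, 1 point per gene, with a black bar at the list's median. The skeletal muscle median lies at 6.85, the 7 fat lists have medians from 0.07 to 0.87, and the endothelial and fibroblast medians lie at -1.82 and -2.15.

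Fibroblast genes were low in replicate 3 too, 10 of 11 below the mean of the others, with a median of -2.15. Col1a1 and Col1a2, the fibrillar collagen genes, had 9.55 and 11.43 there against 10.20 to 11.01 and 13.15 to 13.94. In the keratinocyte and sebaceous gland list 2 of 7 genes were higher in replicate 3 (median -1.46). Krt1 had 7.72 against 8.84 to 9.67, and Krt10 had 9.98 against 9.62 to 9.96. Genes of the urothelium, the lining of the ureter, were higher in replicate 3 in 10 of 12 cases with a median of 0.50, and the part of this in the level of Fabp5 was not tested. Upk1a and Upk1b, uroplakins of the urothelial plaque, had 11.35 and 15.73 there, against 9.33 to 11.02 and 14.36 to 15.07. The largest excesses of the list in replicate 3 were 8.92 for Upk3a and 5.20 for Krt20, both named after their values were seen. Upk3a had 14.91 there against 4.55 to 7.03, and Krt20 had 11.69 against 6.07 to 7.09. Neither was above background over the 4 samples.

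The remaining 5 marker lists had their highest median in replicate 1 or 2. Smooth muscle genes, the defining tissue of the dissection, were above background in 10 of 10 cases, where 57.8% of all named genes were. The list's medians were -1.14 and 1.20 in replicates 1 and 2 and 0.21 in replicate 3. Actg2, the gene named by the reporter, had 11.08, 13.30, 11.64 and 11.63, and Acta2 had 14.07, 15.49, 15.17 and 14.21. All 11 liver genes were over the threshold in replicates 1 and 3 and 2 were in each of the others. Of all named genes 66.9%, 68.5%, 67.4% and 65.9% were in replicates 1 to 4. These shares also stand beside the counts of the gland and mesothelial lists below. Alb was at 14.58 and 11.84 and Apoa1 at 12.05 and 8.70 in replicates 1 and 3. Of 6 male accessory gland genes 6, 6, 2 and 1 were over the threshold in replicates 1 to 4. Svs4 and Svs2 were highest in replicate 2, at 14.80 and 12.89, while Pbsn, named after its values were seen and the 1 gene of that list above background, was highest in replicate 3, at 15.41 against 8.80 to 9.42. Of 7 salivary and lacrimal gland genes 1, 4, 4 and 3 were over the threshold. Pip was at 5.30 in replicate 1 against 13.33 to 16.16, and Dcpp1 at 5.31 against 8.92 to 11.51. That list's median was 1.69 in replicate 2 and 1.33 in replicate 3. Yet 6 of its 7 genes were highest in replicate 3, where 33.6% of all named genes were. Of the 7, 3 were under the threshold in every sample. The list's summed intensity was 196309 in replicate 3, against 414, 79062 and 62461 in replicates 1, 2 and 4. Of 7 mesothelial genes 5, 5, 3 and 5 were over the threshold, with Msln lowest in replicate 3 at 7.31 and Upk3b highest there at 14.34. Krt19 is in both this list and the urothelial list. The part of urothelium in the levels of Krt19 and Upk3b was not tested.

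RNA quality also differed between arrays. The ratio of 3' to 5' signal was 34.3, 36.9, 31.6 and 18.8 for Gapdh and 8.2, 19.8, 5.3 and 4.4 for Actb in replicates 1 to 4, so replicate 3 was not extreme in either. A quantile normalization moved the median of all probe sets by 0.12, 0.21, -0.24 and -0.03 log2 units. After it the excess of replicate 3 was 6.95 for Fabp4, 2.59 for Fabp5, 2.79 for Lpl, 1.95 for Adipoq and 1.06 for Scd1, and -0.32, -0.76 and -0.54 for Cidec, Retn and Lipe.

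The genes whose pattern was most like that of Fabp4 were found by the root mean square difference, over the 4 arrays, of levels centred on each gene's own mean, among 13933 genes over the threshold on 1 or more arrays. The nearest 5 were Ckm, Smpx, Trdn, Scube2 and Htr4, at 0.31, 0.31, 0.39, 0.48 and 0.50 log2 units. Ckm, the creatine kinase of muscle, had 5.64, 6.71, 13.03 and 7.26 in replicates 1 to 4, and Trdn, the triadin of the muscle calcium release complex, had 4.46, 4.72, 11.53 and 4.66. Among the fat cell genes the nearest was Lpl at 1.95, with 239 genes nearer, followed by Fabp5 at 2.09 and Adipoq at 2.17. For Adipoq the nearest were Mlip, Usp29, Hyal3, 1700018L02Rik and 5033404E19Rik, at 0.07 to 0.15 log2 units, none of them above background. Lpl was also the fat cell gene nearest to Adipoq, at 0.65. With 4 arrays such likeness is a description only, and many genes share a high value in replicate 3.

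**Figure D4:**
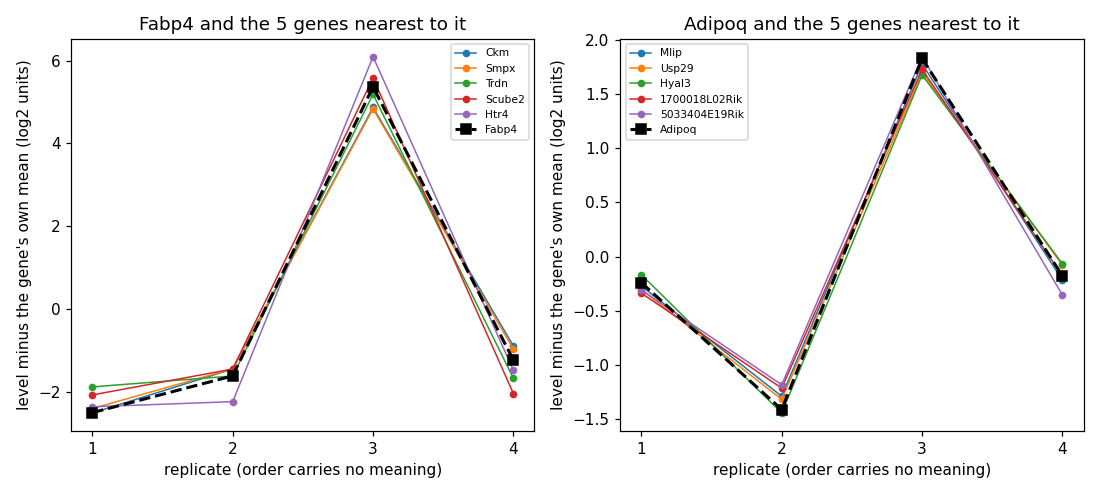
Levels minus each gene's own mean, in log2 units, in the 4 ureter samples for Fabp4 (left) and Adipoq (right) as dashed lines, each with the 5 genes nearest to it. On the left all lines peak in replicate 3, and the vertical scale of the right panel is narrower, since Adipoq and its neighbours spanned under 4 log2 units.

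Fabp4 and Fabp5 belong to a family of small proteins that carry fatty acids or retinoids. By RefSeq's gene order in assembly GRCm38.p6, Fabp5, Pmp2, Fabp9, Fabp4 and Fabp12 follow one another with no other protein-coding gene between them. The neighbours of Fabp4 did not share its level. Pmp2, the myelin member, had 4.52, 4.26, 5.07 and 5.40 in replicates 1 to 4, Fabp9, the testis member, had 4.72, 4.37, 5.10 and 4.60, and Fabp12 had 6.94, 6.54, 7.13 and 6.54. All 3 were under the threshold in every sample.

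Of 14 measured genes of the binding protein family 3 (21.4%) were above background, where 57.8% of all named genes were. The 3 were Fabp5, Fabp3 (adjusted p = 0.0122) and Fabp6 (adjusted p = 7.72e-05). Fabp3, the heart and skeletal muscle member, had 7.91, 8.23, 8.96 and 8.08 in replicates 1 to 4, an excess of 0.88 in replicate 3. Fabp3 is also 1 of the 14 genes of the skeletal muscle list, so the 2 are not independent. Fabp1, the liver member, was at 12.96 in replicate 1 and 10.40 in replicate 3 against 4.83 and 4.28. It is itself 1 of the 11 genes of the liver list, so its likeness to that list is partly built in. Fabp2, the intestinal member, had 11.43, 9.23, 8.06 and 6.05, and Fabp6, which binds bile acids in the ileum, had 10.26, 9.68, 9.13 and 10.34. Fabp7, the brain member, was over the threshold in replicate 2 only, at 8.28. The retinoid carriers Crabp1, Crabp2, Rbp2 and Rbp7 were not above background. Rbp7 had 6.07, 8.19, 7.21 and 7.75, Crabp1 had 5.25, 4.90, 7.63 and 8.13, Crabp2 had 7.35 at most, and Rbp2 had 7.56 in replicate 2 and at most 5.60 elsewhere. Fabp4, Fabp5, Fabp3, Fabp9 and Fabp12 had their highest level in replicate 3, the last 2 under the threshold. These are 5 of the 14 genes, a share near the 33.6% of all named genes that were highest there.

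**Figure D5:**
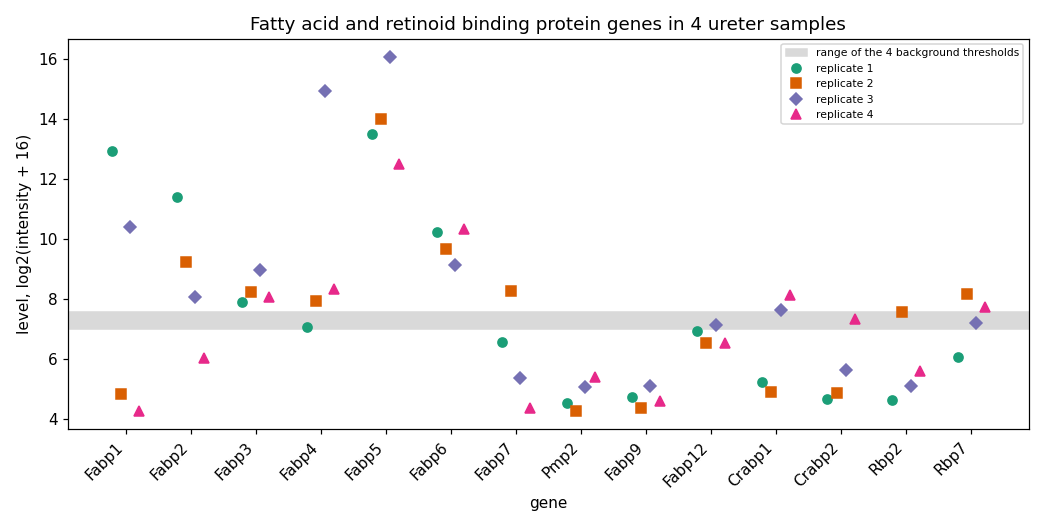
Levels, as log2(intensity + 16), of 14 fatty acid and retinoid binding protein genes in each of 4 ureter samples, with the grey band spanning the array thresholds. Fabp4 shows 1 sample at 14.93 and 3 near the band, Fabp5 lies above 12 in every sample, and Fabp1 is high in replicates 1 and 3.

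The 7 fat lists cover fat cell pathways, brown fat and the whole binding protein family, which includes members of other tissues. In them 79 measured genes were not among the fat cell genes above, and 51 of these (64.6%) were above background, against 57.8% of all named genes. In replicate 3 an excess of over 1 log2 unit was seen in 22 of the 79 (27.8%), against 15.2% of all named genes. The largest were those of Cox8b (3.86), Plin5 (3.44) and Fabp1 (3.04), none of them above background. These genes are also used in muscle, oxidative tissues and liver, and the part of such tissues in this share was not tested. The lists were written with earlier results of these data known, and their counts are descriptions. The counts and medians of each list below are to be read against the same 57.8% and against a median excess of 0.08 in replicate 3 over all named genes.

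Droplet coat and lipolysis genes were above background in 10 of 14 cases, with a median excess of 0.87 in replicate 3. Plin2, the perilipin of many cell types, had 11.69, 11.91, 14.19 and 12.08 in replicates 1 to 4 (adjusted p = 2.18e-06), and Plin3 had 10.33, 9.59, 11.85 and 10.10 (adjusted p = 2.41e-05). Plin4, of fat and striated muscle, had 7.88, 9.14, 10.91 and 9.34 (adjusted p = 0.00212). Each was highest in replicate 3. Plin5, the perilipin of oxidative tissues, had 9.13, 5.82, 10.67 and 6.75 and did not pass (adjusted p = 0.308), and Cidea, a relative of Cidec, was under the threshold in all samples.

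Fatty acid and triglyceride synthesis genes were above background in 15 of 17 cases, with a median excess of 0.52 in replicate 3. Fasn, fatty acid synthase, had 11.72, 11.78, 12.63 and 11.44, and Acaca, which makes its substrate malonyl-CoA, had 11.24, 11.22, 11.58 and 10.90. Acly, which supplies cytosolic acetyl-CoA, had 15.24 ± 0.20 (SD, n = 4), and Acacb, the mitochondrial form of the carboxylase, had 8.44 ± 0.48 (SD, n = 4). Fasn, Acaca and Acly were highest in replicate 3 and lowest in replicate 4, as Scd1 was, while Acacb was lowest in replicate 3.

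Fatty acid and glucose uptake genes were above background in 11 of 14 cases, with a median excess of 0.34 in replicate 3. Gpihbp1, which anchors Lpl on capillary endothelium, had 8.05, 8.10, 8.89 and 7.85 (adjusted p = 0.0178), and Lmf1, which matures Lpl, had 8.85 in replicate 3 and 7.84 to 8.002 elsewhere (adjusted p = 0.0239). Cd36, a fatty acid receptor of fat, muscle and capillaries, had 10.31, 9.74, 11.12 and 8.89 (adjusted p = 0.000112). All 3 were highest in replicate 3, as Lpl was. The endothelial list was lowest there, and the part of endothelium in these levels was not tested.

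Of 8 measured adipokine genes 4 were above background, namely Rbp4 and, named after their values were seen, Angptl4, Apln and Nampt. Apln, the gene of the peptide hormone apelin, had 7.89, 8.15, 9.84 and 8.74 (adjusted p = 0.00517), an excess of 1.58 in replicate 3. Nampt, an enzyme of NAD synthesis that is also secreted, had 11.94, 12.77, 13.42 and 12.50 (adjusted p = 2.22e-07), an excess of 1.02. Angptl4, a secreted inhibitor of Lpl, had 8.05, 8.97, 8.73 and 9.10 (adjusted p = 0.00257). Lep, the leptin gene, had 5.40, 4.33, 5.04 and 4.98 and was under the threshold in all samples, as Retn was. Rbp4, a retinol carrier of liver and fat, had 11.06, 10.49, 9.17 and 9.37 (adjusted p = 0.000281), highest in replicate 1 and lowest in replicate 3. The liver list was high in both of these samples, and the part of liver RNA in the level of Rbp4 was not tested. The list's median excess in replicate 3 was 0.07, and at the stricter background of the median plus 3 median absolute deviations 1 of its genes passed.

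Adipogenic transcription factors were above background in 8 of 12 cases, with a median excess of 0.31 in replicate 3. Pparg, the nuclear receptor that directs fat cell formation and is also a gene of urothelium, had 11.19, 10.66, 13.58 and 11.34 (adjusted p = 1.06e-05), an excess of 2.52 in replicate 3. Cebpa, its partner in fat cells, had 10.33, 9.87, 11.15 and 9.92 (adjusted p = 7.47e-06). Cebpb and Cebpd, which act earlier in fat cell formation, had 12.08 ± 0.29 and 12.65 ± 0.53 (SD, n = 4), and Cebpd was lowest in replicate 3.

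Of 9 brown fat genes 3 were above background. Ucp1, the uncoupling protein that defines brown fat, had levels from 4.44 to 5.05 and was under the threshold in every sample. Prdm16, a regulator of brown fat fate, had 9.59, 8.57, 8.98 and 7.11 (adjusted p = 0.0237), and Dio2, a thyroid hormone deiodinase, had 11.55, 12.89, 11.05 and 12.07 (adjusted p = 5.35e-06). The largest excess of the list in replicate 3 was that of Cox8b, named after its values were seen, at 8.55 against 4.44 to 4.84. Cox8b encodes a respiratory chain subunit of muscle and brown fat.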

How the data were processed

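RNA from 4 unpooled samples was amplified and hybridised to 1 array each. The authors deposited 1 intensity per probe set on a linear scale. The submitters' processing notes name GCOS, Affymetrix's software. Its version is not given in the sources used here. Each array's trimmed mean intensity was 1500, so the values had been scaled already and were used as they are. Of 45101 probe sets 64 controls were left out. The platform annotation gave 34945 probe sets 1 symbol, 932 several and 9160 none, and 34741 gene identifiers matched the RefSeq table.

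Tests used limma 3.58.1 in R 4.3.3 (trend and robust options), adjusted over all probe sets, and were tested on simulated data. A gene was called if any of its probe sets was, which favours genes with several. The 18 gene lists, the 10 fat cell genes and the tests were chosen with earlier results of these data known. The text names every fat cell gene, the binding protein family, the first 4 measured genes of other fat lists, the first 2 of each cell type list and the 5 genes nearest to Fabp4 and Adipoq. Alternatives were pseudocounts of 1 and 64, quantile normalization, stricter backgrounds, a minimum mean intensity of 50, a call without a test, other probe set choices and leaving out each sample.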

Additional observations from a re-analysis of the deposited data

Results flagged for a closer look

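Among 66 genes or probe sets, 1 sample stood far from the other 3 in 4, with a gap to its neighbour that took up more of the whole range than Dixon's 95% critical value for 4 samples. Fabp4 and the genes chosen for their likeness to it were left out, since Fabp4 was part of the choice of the set. Chance gives about 5% of such cases, and genes of one tissue are not independent. The lone sample was replicate 3, on the high side, for Plin2 (0.845 of the range), Lmf1 (0.843) and the fast myosin gene Myh4 (0.969). In Ucp1 (0.852) it was replicate 2, lower than the others, and every level of Ucp1 was under the threshold. The 66 did not cover all genes of the lists. Genes outside them also exceeded the critical value with replicate 3 high, among them Cox8b (0.903), Pbsn (0.907) and further skeletal muscle genes such as Tnnc2 (0.942). These were named after their values were seen.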

How the results depend on the processing

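Over 13 alternatives Fabp5, Scd1 and Lpl kept their calls in all 13, with the highest adjusted p at 0.0222 for Lpl. Adipoq was called in 0, Fabp4 in 1 (without replicate 1) and Lipe in 2 (without replicate 2, and over the threshold in all arrays with no test). Cidec and Retn were called in 0 of the 12 that kept them. The count of called fat cell genes was 3 or 4, from 3 to 4 when each sample was left out. All named genes above background ranged from 7165 at the median plus 3 median absolute deviations to 10643 without a test. The excess of Fabp4 in replicate 3 was 4.60 with the mean over its probe sets, 2 of which had smaller excesses of 0.98 and 3.83. It was 6.79 to 7.43 when another sample was left out. List counts moved over 1.5 times in 25 of 234 cases, most often for the salivary and lacrimal gland list. At the median plus 3 median absolute deviations 6 droplet, 7 uptake, 1 adipokine, 1 binding protein and 6 smooth muscle genes passed. No paired analysis was possible because there is 1 group. Probe sets near the threshold, such as those of Adipoq and Lipe, are limited by signal over background.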
